A study of Homo sapiens with 11 samples.

Results

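The miRNAs described here are miR-15, miR-16, miR-195 and miR-497, which were taken by name as 8 of the 2576 mature miRNAs counted. They comprise 5 guide arms (hsa-miR-15a-5p, hsa-miR-15b-5p, hsa-miR-16-5p, hsa-miR-195-5p and hsa-miR-497-5p) and 3 passenger arms from the other strand of the same hairpins (hsa-miR-15b-3p, hsa-miR-16-2-3p and hsa-miR-195-3p). Small RNA was sequenced from SH-SY5Y cells, a neuroblastoma line for which the labels name SK-N-SH, its parent line, as the source. All cells were differentiated towards neuron-like cells with 10 µM all-trans retinoic acid (ATRA) for 7 days. In co-treatment, 3 libraries received 10 µM H2O2 during those 7 days and 3 control libraries received none. In pre-treatment, 3 libraries received 10 µM H2O2 for 72 hours, which was removed before ATRA was given, and 2 control libraries received none. A single cell line was used, and the study describes biological triplicates with 1 outlier removed. The third control of pre-treatment was not analysed here.

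A miRNA is cut from a hairpin precursor, and 1 of the hairpin's arms, the guide, is loaded into an Argonaute protein, while the passenger arm is usually degraded. The guide binds messenger RNAs mainly through its seed, bases 2 to 8 from the 5′ end, and lowers their translation or stability. The miR-15/16 family is best known for restraining the cell cycle through targets such as the cyclin genes CCND1 and CCNE1, and for targeting the survival gene BCL2. Its members accumulate in many cell types as they leave the cell cycle.

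All 8 members had a mature sequence in the RefSeq table (GRCh38.p14). The guide arms are shown with the seed in capitals because that stretch is what the family shares.
hsa-miR-15a-5p: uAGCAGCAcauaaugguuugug
hsa-miR-15b-5p: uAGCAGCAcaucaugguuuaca
hsa-miR-16-5p: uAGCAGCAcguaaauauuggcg
hsa-miR-195-5p: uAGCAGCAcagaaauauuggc
hsa-miR-497-5p: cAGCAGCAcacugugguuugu
The passenger arms are shown in the same way, because their seeds differ from that of the guides.
hsa-miR-15b-3p: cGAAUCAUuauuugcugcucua
hsa-miR-16-2-3p: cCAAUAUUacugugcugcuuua
hsa-miR-195-3p: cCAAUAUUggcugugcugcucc

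All 5 guide arms carried the seed AGCAGCA, whereas hsa-miR-16-2-3p and hsa-miR-195-3p shared the seed CAAUAUU with each other. Over their length, hsa-miR-16-5p and hsa-miR-195-5p were the most alike, with 19 of 21 aligned positions identical (90.5%). hsa-miR-15a-5p matched hsa-miR-15b-5p at 18 of 22 positions and hsa-miR-497-5p at 17 of 21. The GC content of the guides ran from 40.9% in hsa-miR-15a-5p and hsa-miR-15b-5p to 52.4% in hsa-miR-497-5p. Among the measured miRNAs with a RefSeq sequence, hsa-miR-424-5p and hsa-miR-6838-5p also carried AGCAGCA.

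The hairpins lie in 3 pairs on GRCh37, the assembly also called hg19, as placed by matching each hairpin sequence to the genome. MIR15A (chr13:50623255-50623337) overlaps an exon of at least 1 transcript of the long non-coding RNA gene DLEU2 on the minus strand, and MIR16-1 (chr13:50623109-50623197) lies in a DLEU2 intron, 57 bp away. MIR15B (chr3:160122376-160122473) and MIR16-2 (chr3:160122533-160122613) lie 59 bp apart on the plus strand in an intron of SMC4, which encodes a subunit of condensin. MIR195 (chr17:6920934-6921020) and MIR497 (chr17:6921230-6921341) lie 209 bp apart on the minus strand and overlap an exon of MIR497HG, their host gene. hsa-miR-16-5p is produced by both MIR16-1 and MIR16-2, so its count cannot be assigned to 1 locus, and how the authors counted reads with several matches is not given in the sources used here.

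Library totals ranged from 5343953 to 8927582 counts. Across miRNAs, the log2 CPM of the pre-treatment controls correlated at r = 0.933 with each other, against 0.988 to 0.991 among the pre-treatment H2O2 libraries and 0.977 to 0.989 within the co-treatment groups. Each pre-treatment control correlated with the H2O2 libraries of its experiment at 0.935 to 0.956, so that the controls were less alike than either was to the treated libraries. Of 8 neuronal miRNAs, 7 were tested in each experiment, with summed levels of 4855 to 6244 CPM in co-treatment controls, 5058 to 5747 CPM with H2O2, 4342 to 8089 CPM in pre-treatment controls and 4740 to 4884 CPM with H2O2. hsa-miR-9-5p and hsa-miR-218-5p were lowered in co-treatment, and in pre-treatment hsa-miR-138-5p was raised and hsa-miR-375 lowered. The neuron-specific hsa-miR-124-3p was at 2 counts or fewer in every co-treatment library and at 7 or fewer in every pre-treatment library. Bulk RNA does not separate a change in the number of cells of a type from a change in RNA per cell.

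Every member passed the filter on low counts in both experiments, which tested 790 miRNAs in co-treatment and 868 in pre-treatment. In co-treatment, 1 of the 8 members was called, hsa-miR-15a-5p, and it was lowered. In pre-treatment, 4 of the 8 were called, hsa-miR-15a-5p, hsa-miR-16-5p, hsa-miR-195-5p and hsa-miR-497-5p, and all 4 were raised, by 2.07-fold to 2.42-fold. A call needed an FDR (Benjamini-Hochberg adjusted p over all tested miRNAs) below 0.05 from edgeR's exact test together with a log2 fold change (log2FC) beyond 0.6 in either direction. By this rule 26.2% of all tested miRNAs were called in co-treatment, 15.6% as lowered, and 15.3% in pre-treatment, 5.41% as raised. hsa-miR-15b-5p, the most abundant member in every library, was called in neither experiment, and neither was any passenger arm.

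**Figure D1:**
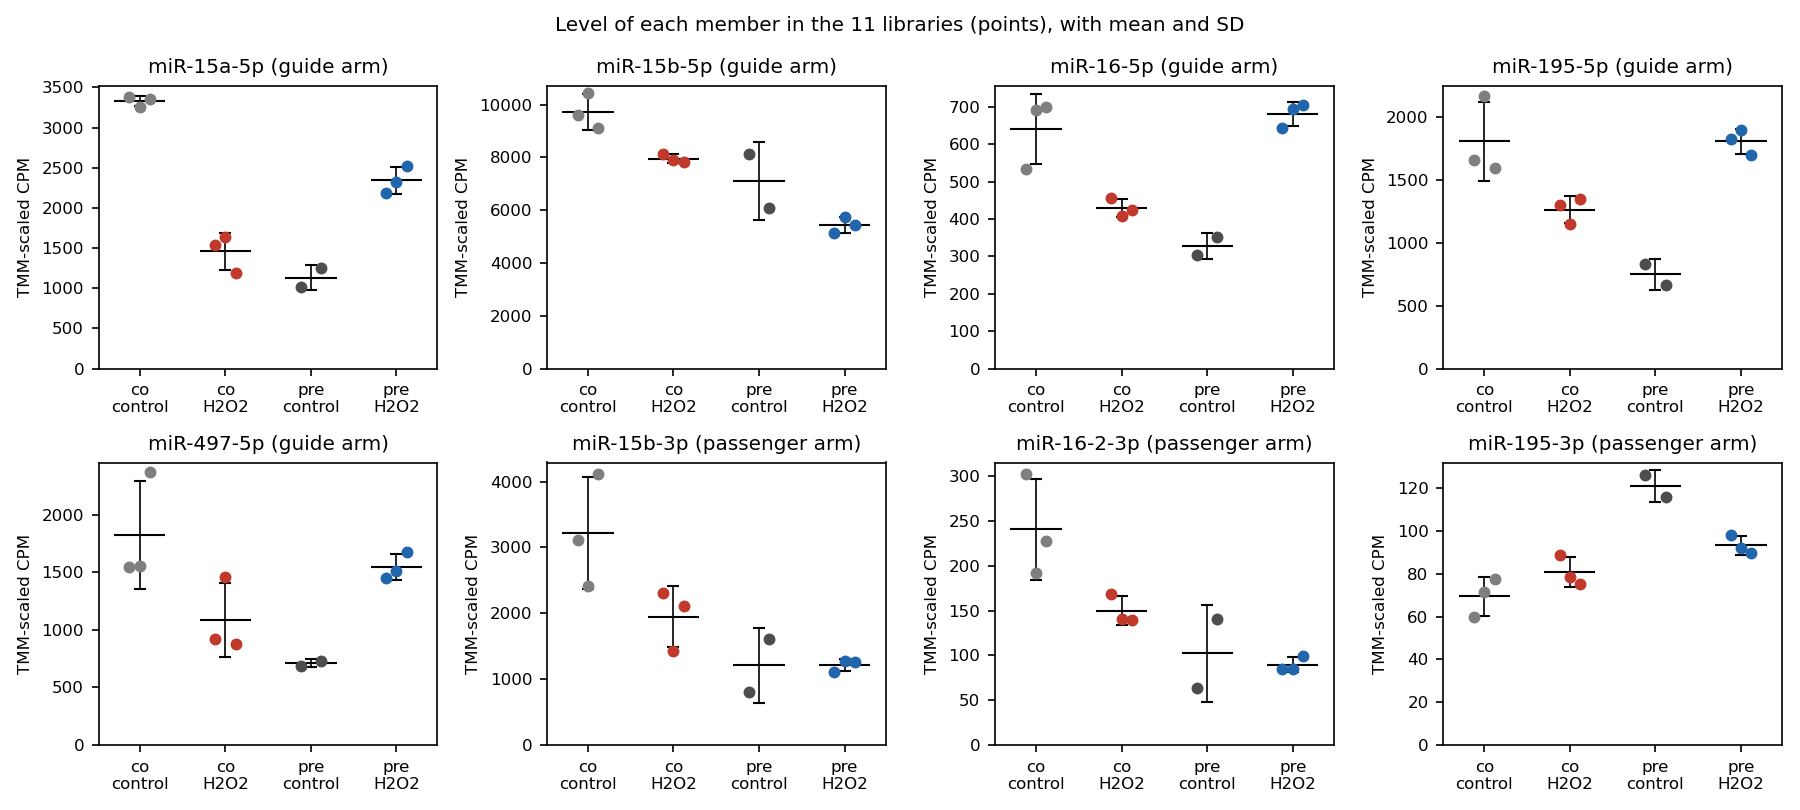
Level of each member in TMM-scaled CPM (vertical axes, linear from 0) in the 11 libraries, with 1 point per library, the group mean as a line and the SD as a bar. In pre-treatment the points of hsa-miR-15a-5p, hsa-miR-16-5p, hsa-miR-195-5p and hsa-miR-497-5p lie higher with H2O2 than in controls, whereas in co-treatment the same guides lie lower with H2O2.

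Levels are given in CPM, which are counts brought to a common library size, here with TMM factors within each experiment. The guides are 21 or 22 bases long, so that no correction for length was needed, but the efficiency with which each sequence was captured was not measured. hsa-miR-15b-5p came first in every library, at 5126 to 10439 CPM. Among the guides, hsa-miR-15a-5p came second in every library but H2O2 replicate 3 of co-treatment, at 1020 to 3377 CPM. hsa-miR-16-5p came last among them in every library, at 304 to 705 CPM. The passenger arm hsa-miR-15b-3p lay above hsa-miR-15a-5p in some libraries, such as co-treatment control replicate 3, at 4116 against 3359 CPM. hsa-miR-195-5p and hsa-miR-497-5p had overlapping ranges within each of the co-treatment groups and within the pre-treatment controls, so that their order could not be given there, whereas hsa-miR-195-5p was the higher in all pre-treatment H2O2 libraries. Together, the 5 guide arms made up 0.815% to 1.82% of the counts of a library.

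hsa-miR-15a-5p, from the DLEU2 locus, had 3377, 3253 and 3359 CPM in the co-treatment controls and 1541, 1639 and 1193 CPM with H2O2. All control libraries were above all H2O2 libraries. Its log2FC was −1.19 (SE 0.24; exact test FDR = 3.3e-04), from 3330 ± 67.0 CPM (SD, n = 3) in controls to 1458 ± 234 CPM (SD, n = 3). In pre-treatment it had 1020 and 1247 CPM in the controls and 2189, 2321 and 2521 CPM with H2O2. The groups again did not overlap, in the opposite direction, with a log2FC of 1.05 (SE 0.25; exact test FDR = 0.0261).

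hsa-miR-16-5p, made from both the DLEU2 and the SMC4 locus, had 534, 691 and 699 CPM in the co-treatment controls and 458, 409 and 424 CPM with H2O2. The groups did not overlap, but the lowest control lay close to the H2O2 libraries. The log2FC of −0.58 (SE 0.25) had an FDR of 0.1003 from edgeR's exact test. In pre-treatment, hsa-miR-16-5p had 304 and 352 CPM in the controls and 644, 694 and 705 CPM with H2O2. Each H2O2 library was above both controls, with a log2FC of 1.06 (SE 0.26; exact test FDR = 0.0291).

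hsa-miR-195-5p, from the MIR497HG locus, had 1655, 2169 and 1597 CPM in the co-treatment controls and 1302, 1145 and 1344 CPM with H2O2. No H2O2 library reached a control, although the log2FC of −0.52 (SE 0.24) had an FDR of 0.142 from edgeR's exact test. In pre-treatment it had 833 and 662 CPM in the controls and 1828, 1895 and 1698 CPM with H2O2. This was the largest log2FC among the members in pre-treatment, 1.27 (SE 0.26; exact test FDR = 0.00825), without overlap between the groups.

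hsa-miR-497-5p, from the hairpin next to MIR195, had 1548, 1552 and 2368 CPM in the co-treatment controls and 917, 1459 and 879 CPM with H2O2. Control replicate 3 and H2O2 replicate 2 were the high libraries of their groups, and the groups did not overlap. The log2FC was −0.75 (SE 0.28), with an FDR of 0.0514 from edgeR's exact test, just above the limit. With 1 library left out it ran from −0.93 without H2O2 replicate 2 to −0.43 without control replicate 3, with FDR from 0.0164 to 0.318 by edgeR's exact test. In pre-treatment it had 688 and 733 CPM in the controls and 1452, 1513 and 1671 CPM with H2O2. All H2O2 libraries lay above the controls, with a log2FC of 1.12 (SE 0.25; exact test FDR = 0.0168).

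hsa-miR-15b-5p, from the SMC4 locus, had 9602, 10439 and 9103 CPM in the co-treatment controls and 8133, 7907 and 7806 CPM with H2O2. In pre-treatment it had 8144 and 6065 CPM in the controls and 5126, 5722 and 5444 CPM with H2O2. In both experiments every H2O2 library was below every control, but neither difference was called. The log2FC was −0.29 (SE 0.21; FDR = 0.416) in co-treatment and −0.39 (SE 0.25; FDR = 0.468) in pre-treatment by edgeR's exact test. With 1 library left out, the pre-treatment value ran from −0.61 to −0.11.

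**Figure D2:**
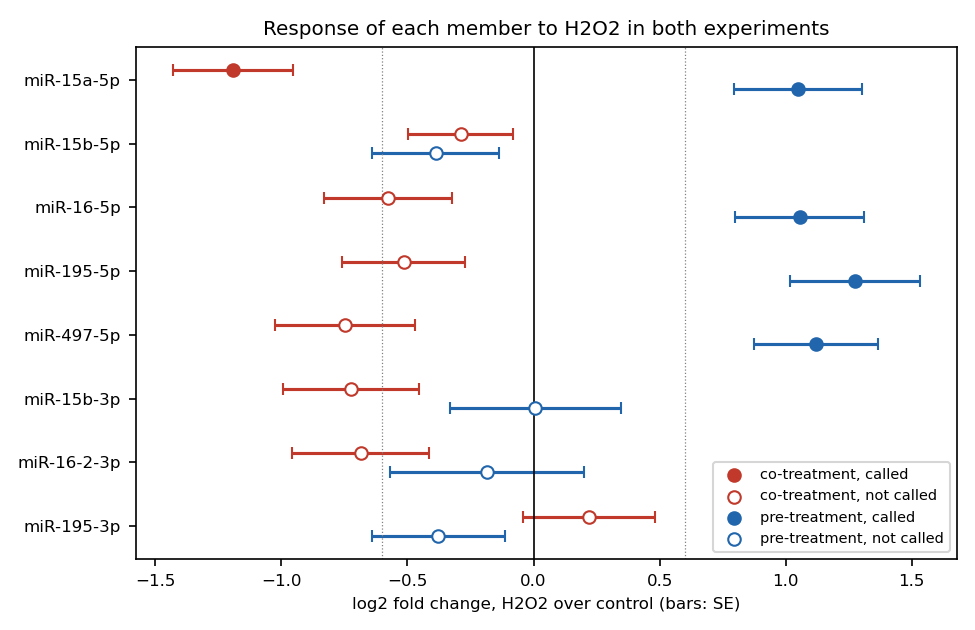
log2FC of H2O2 over control (horizontal axis) for each member in co-treatment (red) and pre-treatment (blue), with SE bars, filled symbols for called members and dotted lines at −0.6 and 0.6. The 4 guides called in pre-treatment lie between 1.05 and 1.27, while their co-treatment values lie between −1.19 and −0.52.

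Among the passenger arms, hsa-miR-15b-3p had 3118, 2417 and 4116 CPM in the co-treatment controls and 2310, 1426 and 2109 CPM with H2O2. The groups did not overlap, and the log2FC of −0.72 (SE 0.27) had an FDR of 0.0551 from edgeR's exact test. In pre-treatment its controls, at 808 and 1614 CPM, lay on either side of the H2O2 libraries at 1114, 1273 and 1265 CPM, and the log2FC was 0.01 (SE 0.34). hsa-miR-16-2-3p, from the same locus, showed a similar arrangement.

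hsa-miR-16-2-3p had 302, 192 and 228 CPM in the co-treatment controls and 169, 141 and 139 CPM with H2O2, with a log2FC of −0.69 (SE 0.27; exact test FDR = 0.0595). Its pre-treatment controls, at 63.8 and 140 CPM, again enclosed the H2O2 libraries at 84.6, 85.0 and 99.7 CPM. The log2FC there was −0.19 (SE 0.38; exact test FDR = 0.810). Control replicate 1 was the low library for both passenger arms of the SMC4 locus.

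hsa-miR-195-3p differed in sign from its guide in both experiments. It had 59.7, 71.3 and 77.5 CPM in the co-treatment controls and 89.1, 78.4 and 75.4 CPM with H2O2, which overlapped (log2FC 0.22, SE 0.26; exact test FDR = 0.584). In pre-treatment it had 126 and 116 CPM in the controls and 98.0, 92.2 and 89.7 CPM with H2O2, which did not overlap (log2FC −0.38, SE 0.26; exact test FDR = 0.520).

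In all, the groups did not overlap for 7 of the 8 members in co-treatment, the exception being hsa-miR-195-3p, and for 6 of the 8 in pre-treatment, the exceptions being hsa-miR-15b-3p and hsa-miR-16-2-3p. Over all tested miRNAs the groups did not overlap for 41.6% in co-treatment and 46% in pre-treatment. The median log2FC of the 5 guides was −0.58 in co-treatment and 1.06 in pre-treatment, against −0.04 and −0.19 for all tested miRNAs. The median of the 3 passenger arms was −0.69 in co-treatment and −0.19 in pre-treatment.

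The pre-treatment calls depended on the test and on the number of libraries. edgeR's quasi-likelihood test, which gave the SEs above, called none of the 8 members in pre-treatment, where it called 1.96% of all tested miRNAs. The FDR of hsa-miR-15a-5p, hsa-miR-16-5p, hsa-miR-195-5p and hsa-miR-497-5p by that test ran from 0.0520 to 0.0590, and 4 members had an unadjusted p under 0.05, whereas DESeq2 called the same 4, among 15.6% of all tested miRNAs. A single quasi-likelihood fit of both experiments called these 4 as well, among 15.9%. The exact test called none of the members without H2O2 replicate 1, 2 or 3, where it called 13, 9 and 16 miRNAs in all. It called 4 without control replicate 1 and 5 without control replicate 2, where hsa-miR-15b-5p was the fifth, as lowered, among 285 and 449 calls in all.

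In co-treatment, hsa-miR-15a-5p was called with each library left out in turn. Without control replicate 2 the exact test called 279 miRNAs, 4 members among them as lowered, with hsa-miR-497-5p, hsa-miR-15b-3p and hsa-miR-16-2-3p beside hsa-miR-15a-5p. Without H2O2 replicate 2 it called 230 miRNAs, with 2 members, the second being hsa-miR-497-5p. DESeq2 called 3, hsa-miR-15a-5p, hsa-miR-497-5p and hsa-miR-16-2-3p, among 26.2% of all tested miRNAs, and the quasi-likelihood test called hsa-miR-15a-5p alone, among 22.9%.

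Whether the response differed between the regimens was asked of the interaction term in edgeR's quasi-likelihood fit to the 11 libraries together. The difference passed an FDR of 0.05 for 4 of the 8 members, all with a higher log2FC in pre-treatment than in co-treatment, against 27.3% of the 945 miRNAs tested, 12.9% in that direction. hsa-miR-15a-5p had the largest difference among the members, 2.26 on the log2 scale (SE 0.34; FDR = 7.83e-04 from edgeR). The differences of hsa-miR-16-5p, hsa-miR-195-5p and hsa-miR-497-5p were 1.65 (SE 0.35), 1.79 (SE 0.34) and 1.90 (SE 0.42), with FDR from 0.00276 to 0.00524 by the same edgeR test. These 4 guides were called with each of the 11 libraries left out in turn.

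The difference of hsa-miR-15b-5p was −0.10 (SE 0.31; FDR = 0.845 from edgeR), and those of the passenger arms ran from −0.58 to 0.78 with FDR of at least 0.215. With 1 library left out in turn, the difference of hsa-miR-15b-3p ran from 0.18 to 1.30 and that of hsa-miR-16-2-3p from −0.08 to 1.16. The regimens differ in the length of exposure, in its timing and in any batch between the experiments, and these cannot be told apart. The controls had the same ATRA and no H2O2 but differed between the experiments, with CPM scaled within each. Mean CPM of hsa-miR-15a-5p was 3330 in co-treatment controls and 1133 in pre-treatment controls, against 1458 and 2344 with H2O2. For hsa-miR-16-5p, hsa-miR-195-5p and hsa-miR-497-5p the control means were 641 and 328, 1807 and 748, and 1823 and 711. Their H2O2 means were 430 and 681, 1264 and 1807, and 1085 and 1545. The interaction draws on both.

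The response of miRNAs in both experiments ran with the GC content of the mature sequence. Across miRNAs with a mean of at least 10 CPM, log2FC correlated with GC content at r = 0.656 in co-treatment (362 miRNAs) and r = −0.381 in pre-treatment (348 miRNAs), a description over miRNAs of the same libraries. miRNAs at or below the median GC content had a median log2FC of −0.63 in co-treatment and 0.35 in pre-treatment, and those above it 0.36 and −0.52. Of the guides, hsa-miR-15a-5p, hsa-miR-15b-5p, hsa-miR-16-5p and hsa-miR-195-5p fall at or below both medians and hsa-miR-497-5p above both. hsa-miR-15a-5p and hsa-miR-15b-5p have the same GC content and differed in their response in pre-treatment, at 1.05 against −0.39.

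**Figure D3:**
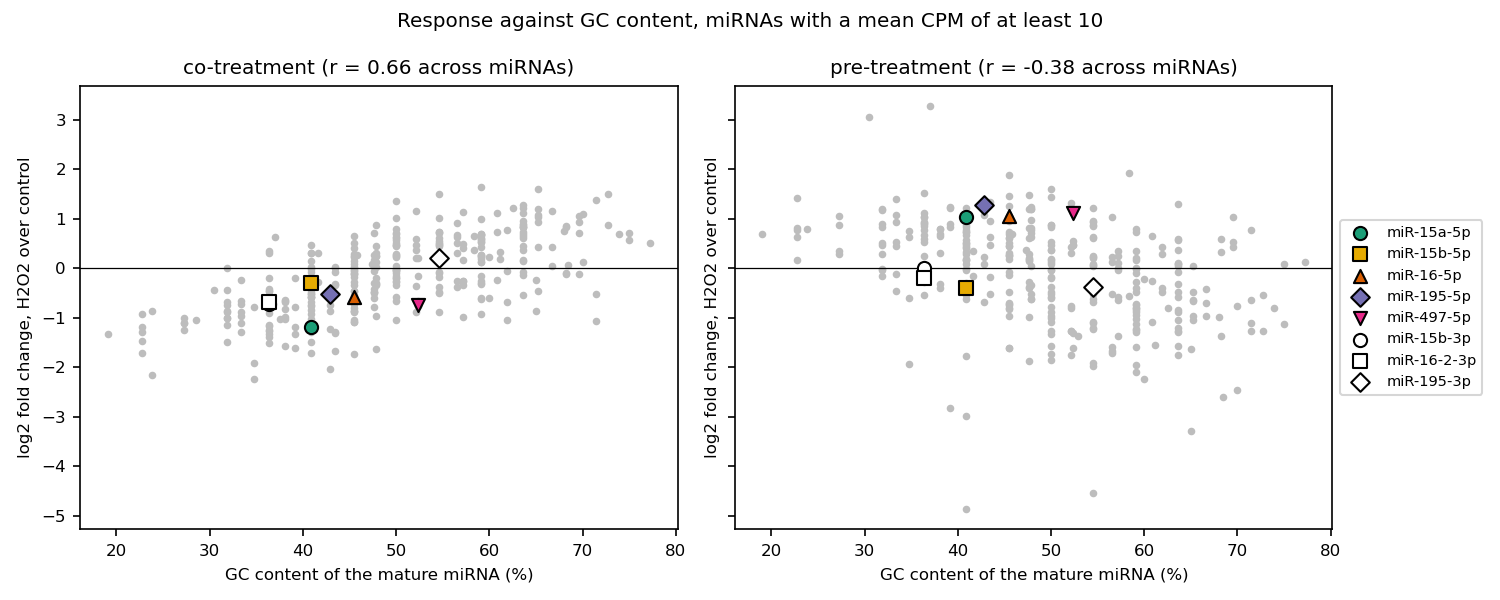
log2FC of H2O2 over control (vertical axis) against the GC content of the mature miRNA in percent (horizontal axis) in co-treatment (left) and pre-treatment (right), with 1 grey point per miRNA with a mean of at least 10 CPM and the members as large symbols, guides filled and passenger arms open. The cloud slopes up in co-treatment (r = 0.656) and down in pre-treatment (r = −0.381), and hsa-miR-497-5p, at 52.4% GC, lies off the slope in both panels.

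When the trend of every library on GC was taken out in a quasi-likelihood fit, hsa-miR-15a-5p had a log2FC of −0.61 in co-treatment (SE 0.20; FDR = 0.0818 from edgeR), against −0.96 in the same miRNAs without the correction, and no member was called, with 6.63% called of the 362 miRNAs fitted. hsa-miR-15b-3p and hsa-miR-16-2-3p, at −0.72 and −0.69 before, had values of 0.05 and 0.07 in that fit. In pre-treatment the same correction left 1 member called, hsa-miR-497-5p, at 1.19 (SE 0.18; FDR = 0.0343 from edgeR), with 11.8% called of 348. hsa-miR-15a-5p, hsa-miR-16-5p and hsa-miR-195-5p kept positive values of 0.61, 0.79 and 0.83, with FDR from 0.0575 to 0.135. Without the correction the same quasi-likelihood fit of 348 miRNAs called 3, hsa-miR-15a-5p, hsa-miR-16-5p and hsa-miR-497-5p, and 14.9% of all.

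The difference between regimens, with the GC trend removed, was 1.25 for hsa-miR-15a-5p, 1.10 for hsa-miR-16-5p and 2.08 for hsa-miR-497-5p, with FDR of 0.0103, 0.0200 and 0.00646 from edgeR. That of hsa-miR-195-5p was 0.91 (FDR = 0.123), no longer called, and that of hsa-miR-15b-5p was −1.18 (FDR = 0.0442), now called in the other direction. Of the 355 miRNAs fitted, 23.1% were called. Without the correction the same fit called 5 members and 42.3% of all, the 4 guides and hsa-miR-195-3p at −1.04 (FDR = 0.0191 from edgeR). These fits were chosen after the data were seen.

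Because the guides share a seed, their make-up within a library was also compared, a measure that does not depend on scaling between libraries. In co-treatment controls hsa-miR-15b-5p made up 53.2% to 57.7% of the summed counts of the 5 guides and hsa-miR-15a-5p 18.0% to 20.2%. With H2O2, hsa-miR-15b-5p made up 63.0% to 67.0% and hsa-miR-15a-5p 10.2% to 13.0%. Neither pair of ranges overlapped, whereas the shares of hsa-miR-16-5p, hsa-miR-195-5p and hsa-miR-497-5p overlapped between the groups.

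In pre-treatment the shares of all 5 guides were without overlap. hsa-miR-15b-5p made up 66.9% and 74.1% in the controls and 45.2% to 47.1% with H2O2. On average hsa-miR-15a-5p had 19.8% with H2O2 against 11.5% in controls, hsa-miR-195-5p 15.3% against 7.45%, hsa-miR-497-5p 13.1% against 7.18% and hsa-miR-16-5p 5.77% against 3.32%. The shares of a library sum to 100%, so these differences are not independent of each other. Shares within other families were not computed, so how often such shares separate these groups is not known. The exact two-sided permutation test gave p = 0.1 for each of the 7 shares without overlap in the 2 experiments, which is the smallest p that either design allows, and 0.143 after Benjamini-Hochberg adjustment over 10 tests.

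**Figure D4:**
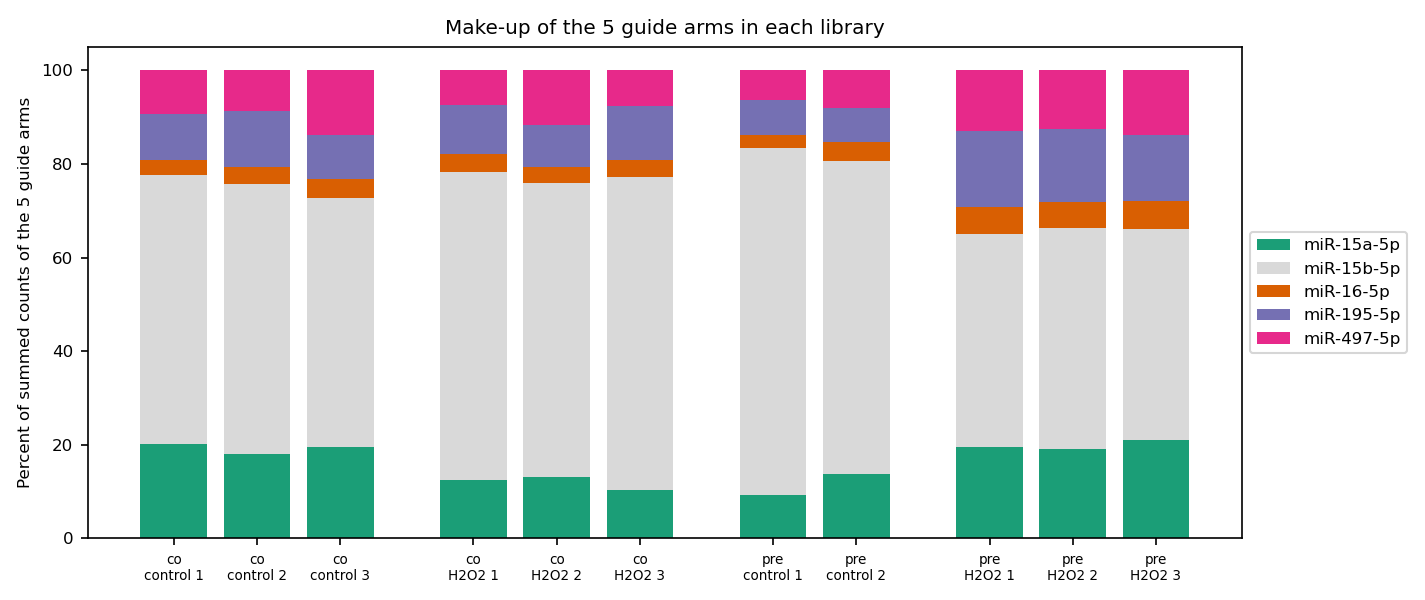
Make-up of the 5 guide arms in each library, as percent of their summed counts (vertical axis, 0 to 100), with 1 bar per library. The grey block of hsa-miR-15b-5p is larger with H2O2 than in controls in co-treatment (63.0% to 67.0% against 53.2% to 57.7%) and smaller in pre-treatment (45.2% to 47.1% against 66.9% and 74.1%).

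The summed level of the 5 guides was 16716 to 18103 CPM in co-treatment controls and 11646 to 12558 CPM with H2O2. In pre-treatment it was 10988 and 9059 CPM in the controls and 11240 to 12145 CPM with H2O2. In co-treatment the sums were well apart, but in pre-treatment the lowest H2O2 sum lay close to the higher control. Without hsa-miR-15b-5p, the pre-treatment sums were 2844 and 2994 CPM in the controls and 6113 to 6595 CPM with H2O2, and the co-treatment sums were 7114 to 8023 CPM and 3840 to 4651 CPM.

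The balance of the arms of each hairpin was measured as the 3p share, the percent of 3p counts among the counts of both arms. For miR-195 the 3p share was 3.18% to 4.63% in co-treatment controls and 5.31% to 6.41% with H2O2. In pre-treatment it was 13.2% and 14.9% in the controls and 4.64% to 5.09% with H2O2. The groups did not overlap in either experiment, and the direction was opposite, with more 3p under H2O2 in co-treatment and less in pre-treatment. hsa-miR-195-3p has a GC content of 54.5% and hsa-miR-195-5p one of 42.9%, and the part of the GC trend in this share was not tested.

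hsa-miR-16-2-3p made up 17.4% and 28.5% of its sum with hsa-miR-16-5p in pre-treatment controls and 10.9% to 12.4% with H2O2, also without overlap. Since part of hsa-miR-16-5p comes from MIR16-1, this is not the arm ratio of 1 hairpin. The 3p share of miR-15b overlapped between the groups in both experiments and averaged 19.6% with H2O2 against 24.8% in controls in co-treatment, and 18.3% against 15.02% in pre-treatment. In pre-treatment the 3p shares of miR-15a and miR-497 were under 2% in every library and were without overlap, on average 0.183% against 0.701% and 0.622% against 1.45%. In all, 5 of the 10 comparisons of 3p shares had no overlap, each with p = 0.1 from the exact two-sided permutation test, the smallest possible, and 0.2 after adjustment. How often 3p shares of other hairpins were without overlap was not computed. In CPM, a different measure, the groups did not overlap for 41.6% of all tested miRNAs in co-treatment and 46% in pre-treatment.

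**Figure D5:**
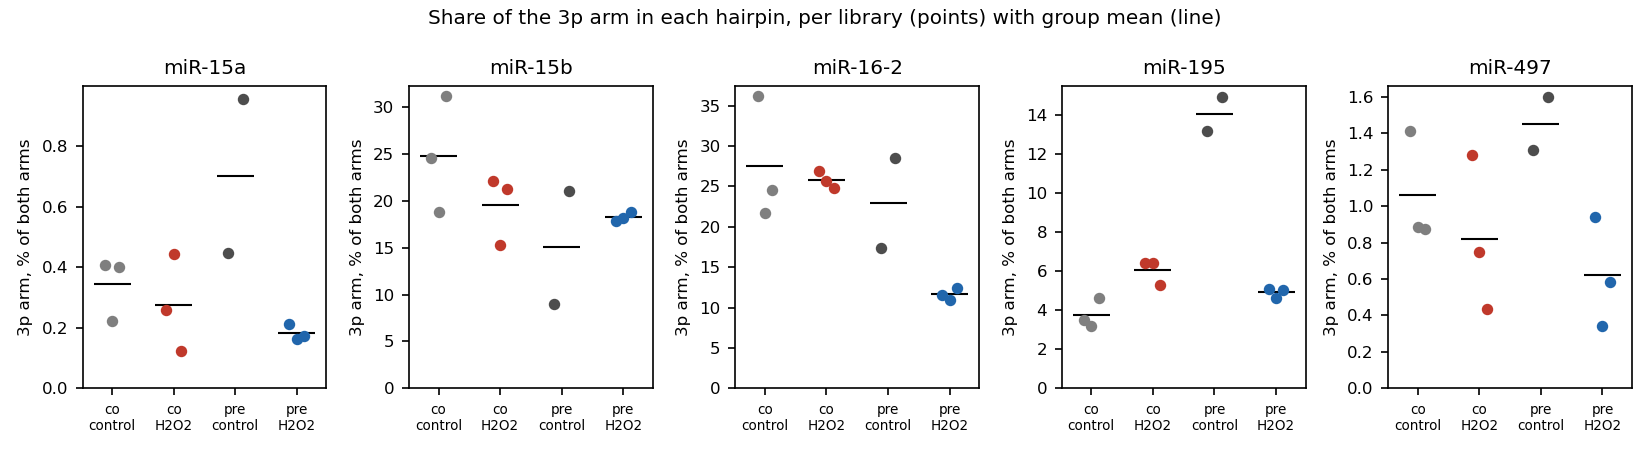
3p share of each hairpin in percent of the counts of both arms (vertical axes, linear from 0), with 1 point per library and a line at the group mean, where miR-16-2 is set against all of hsa-miR-16-5p. For miR-195 the pre-treatment controls, at 13.2% and 14.9%, lie above all other libraries.

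The arms of these hairpins that are not among the 8 members were lower in abundance, at 1.46 to 24.3 CPM. In co-treatment 2 of the 3 were lowered, hsa-miR-15a-3p (log2FC −1.45, SE 0.45; FDR = 0.0122) and hsa-miR-497-3p (log2FC −1.09, SE 0.37; FDR = 0.0259) by edgeR's exact test. The third, hsa-miR-16-1-3p, had a log2FC of −0.85 and an FDR of 0.0859 from that edgeR test. In pre-treatment none of the 3 was called by edgeR's exact or quasi-likelihood test, none had an unadjusted p under 0.05, and their log2FC values ran from −0.95 to −0.13, while the guides of their hairpins were raised.

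Of 6 other miRNAs with a related seed, 4 were tested. hsa-miR-424-5p, which shares AGCAGCA, had 86.6, 92.4 and 136 CPM in co-treatment controls and 36.5, 51.0 and 23.0 CPM with H2O2. It was lowered without overlap, with a log2FC of −1.51 (SE 0.32; exact test FDR = 2.28e-04). In pre-treatment its log2FC was 0.60 (SE 0.31) with an FDR of 0.359, and its difference between regimens was 2.14 (FDR = 0.00671 from edgeR's interaction test).

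hsa-miR-103a-3p and hsa-miR-107, in which the same bases are shifted by 1 position to give the seed GCAGCAU, were both tested. hsa-miR-103a-3p was raised in co-treatment, as were 10.6% of all tested miRNAs (log2FC 0.89, SE 0.30; exact test FDR = 0.0248), and hsa-miR-107 had a log2FC of 0.32 (FDR = 0.453) with overlapping groups. In pre-treatment hsa-miR-107 had a log2FC of 1.19 (SE 0.38) with an FDR of 0.0566 from edgeR's exact test, and hsa-miR-103a-3p one of 0.72 (FDR = 0.287). hsa-miR-503-5p, with the seed AGCAGCG, had a log2FC of −0.39 in co-treatment and 0.12 in pre-treatment and was called in neither. hsa-miR-103a-3p and hsa-miR-107 differ by only 1 base, near the 3′ end, so that counting could have mixed them.

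To describe how the members moved together over the 11 libraries, log2 CPM was centred within each experiment and correlated with the mean profile of the 5 guides, which contains each of them. The guides hsa-miR-15a-5p, hsa-miR-16-5p, hsa-miR-497-5p and hsa-miR-195-5p had r from 0.900 to 0.960, whereas hsa-miR-15b-5p had r = −0.06. With each other, hsa-miR-16-5p and hsa-miR-195-5p, the most alike in sequence, had r = 0.923, and the clustered hsa-miR-195-5p and hsa-miR-497-5p had r = 0.760. The passenger arms hsa-miR-15b-3p and hsa-miR-16-2-3p had r = 0.826, and hsa-miR-195-3p had r = −0.660 with its own guide. Among 404 miRNAs compared, those outside the family with the closest profile were hsa-miR-374b-3p (r = 0.971), hsa-miR-301a-3p (0.943), hsa-miR-301b (0.940), hsa-miR-190a-5p (0.935) and hsa-miR-340-5p (0.932). These values share library, depth and the GC trend.

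Markers of other cell types were called in both experiments. In pre-treatment, of 4 red blood cell miRNAs, a cell type in which hsa-miR-16-5p is abundant, 3 were tested and 2 were raised, hsa-miR-451a and hsa-miR-144-5p. The summed level of the 4 was 2.01 to 3.81 CPM in controls and 10.2 to 14.2 CPM with H2O2. hsa-miR-486-5p, of the same list, was at 1.07 and 1.22 CPM in controls and 0.40 to 1.36 CPM with H2O2. The liver miRNA hsa-miR-122-5p was raised from 92.5 and 261 CPM to between 537 and 788 CPM. Of 5 white blood cell miRNAs, 4 were tested and 1 was lowered, hsa-miR-223-3p, with 540 counts in control replicate 1 and 4 in control replicate 2. The summed white blood cell level was 14.3 to 113 CPM in controls and 17.2 to 20.8 CPM with H2O2.

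Of 7 epithelial miRNAs 1 was lowered in pre-treatment, hsa-miR-205-5p, with 1007 counts in control replicate 1 and 32 in control replicate 2. Summed levels of the 7 were 72.9 to 201 CPM in controls and 83.6 to 92.0 CPM with H2O2. Of 4 muscle miRNAs 1 of 2 tested was raised, while hsa-miR-133a-3p and hsa-miR-133b were at 0 in all 5 libraries. Summed over the 4, the muscle level was 1.48 to 4.27 CPM in controls and 6.08 to 6.51 CPM with H2O2. In co-treatment the summed red blood cell level was 4.67 to 7.30 CPM in controls and 5.93 to 9.95 CPM with H2O2, with 1 of 3 tested raised. There hsa-miR-486-5p was at 0.16 to 0.55 CPM in controls and 1.35 to 2.65 CPM with H2O2. The liver miRNA hsa-miR-122-5p was at 152 to 297 CPM and 208 to 540 CPM and was not called. Of 4 white blood cell miRNAs tested in co-treatment 1 was lowered, hsa-miR-142-5p. Summed over all 5 of that list, the level was 19.8 to 21.7 CPM in controls and 9.82 to 17.4 CPM with H2O2, without overlap. The summed epithelial level there was 81.9 to 105 CPM in controls and 77.4 to 86.5 CPM with H2O2, and the muscle level 5.71 to 6.94 CPM and 3.56 to 5.97 CPM. The part of these sources in the values of the members was not tested.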

How the data were processed

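Small RNA of SH-SY5Y cells was measured in 11 libraries, grouped by their labels. The authors removed adapters (Cutadapt 2.10), mapped the reads to hg19 (Bowtie2 2.4.1), counted them per mature miRNA (HTSeq 0.7.2) and deposited the raw count of each miRNA, per the submitters' processing notes. Whether molecular identifiers were used in counting is not given in the sources used here. The deposited tables of the authors' own fold changes and p-values were not used. Totals had a median of 7425640 counts. The study speaks of biological triplicates but the labels name no separate cultures, so p-values measure the spread between these libraries, which may be technical.

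Within each experiment, H2O2 and control libraries were compared by the exact test of edgeR 4.0.16 (R 4.3.3) after the study's methods, with TMM scaling, which those methods do not name. miRNAs were tested when they passed the CPM of 5 counts in the smallest library (0.936 and 0.721) in 3 co-treatment or 2 pre-treatment libraries at least. SEs came from edgeR's quasi-likelihood fit. The difference between regimens was an interaction term in such a fit of all 11 libraries. Shares within a library were compared by exact permutation tests. GC trends (lowess, span 0.5) were fitted for miRNAs with a sequence, 88.7% and 88.3% of those with a mean of at least 10 CPM. Alternatives were DESeq2 1.42.0, other scalings, filters and thresholds, 1 fit of both experiments, a replicate block and each library left out. The scripts were tested on simulated data. The miRNAs named are the 8 members, the other arms of their hairpins, miRNAs of related seed and the 5 of most similar profile. The members, the lists and the tests were chosen with earlier results of these data known.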

Additional observations from a re-analysis of the deposited data

Results flagged for a closer look

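The response of 4 guide arms differed between the regimens by edgeR's interaction test, as pre-treatment minus co-treatment on the log2 scale. The difference was 2.26 for hsa-miR-15a-5p, 1.65 for hsa-miR-16-5p, 1.79 for hsa-miR-195-5p and 1.90 for hsa-miR-497-5p. The levels of these guides in the controls also differed between the experiments.

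Some shares within a library moved in opposite directions in all libraries of the regimens, and these differences between regimens were not tested. With H2O2, the share of hsa-miR-15a-5p among the guides was 7.34 percentage points lower in co-treatment (−7.34) and 8.32 points higher in pre-treatment. The share of hsa-miR-15b-5p was 9.19 points higher in co-treatment, and the difference in pre-treatment was −24.5 points. The 3p share of miR-195 was 2.27 points higher in co-treatment, and the difference in pre-treatment was −9.12 points.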

How the results depend on the processing

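In co-treatment, where 1 member was called, DESeq2 called 3, and the quasi-likelihood fit with the GC trend removed called 0. With the replicate block added, that fit called 0 of all 362 miRNAs. With 1 library left out, 1 to 4 members were called. In pre-treatment, where 4 were called, the quasi-likelihood test called 0 and the quasi-likelihood fit with the GC trend removed 1. The exact test without a filter on low counts called 2, among 61 of 1519 miRNAs. With 1 library left out, 0 to 5 were called. Where 1 control was left, it was assumed to vary like the H2O2 libraries. The other scalings, the filter on all libraries and the FDR alone kept these counts at 1 and 4. The interaction called 4 members under the other scaling (249 of 945 miRNAs in all), without a filter (260 of 1641) and with the block. It called 4 with each library other than a pre-treatment control left out in turn. Among the miRNAs with a GC value it called 5 members, and with the GC trend removed 4. The groups did not overlap for 7 to 8 guide shares and 5 to 6 of the 3p shares with 1 library left out. Replicate numbers gave no sign of pairing the samples. The deviations of samples with the same number correlated at −0.161 to 0.0433 in co-treatment and −0.05 to 0.225 in pre-treatment. With so few libraries this check cannot exclude pairing, and in pre-treatment the deviations of the 2 controls mirror each other. With the replicate block in the quasi-likelihood fit, 1 member was called in co-treatment, 0 in pre-treatment and 0 in pre-treatment with the GC trend removed too, and 4 differed between regimens. Over all miRNAs, the block called 111 of 790 in co-treatment and 15 of 868 in pre-treatment. For the difference between regimens it called 115 of 945. With the GC trend removed too, it called 0 of all 348 miRNAs in pre-treatment. Scaling by library size raised the share of up-regulated calls in co-treatment from 40.6% to 50.5%. None of the members called in the main exact and interaction tests changed sign in any setting of the test that called it. In co-treatment hsa-miR-15b-5p, which no setting called there, ran from −0.29 to 0.30 over the settings. Its difference between regimens, called with the GC trend removed, ran from −1.18 to 0.08. In co-treatment hsa-miR-15b-3p and hsa-miR-16-2-3p, called as lowered in some settings, had log2FC up to 0.05 and 0.10 with the GC trend removed. With 3 against 3 and 2 against 3 libraries, the shares could not reach a p under 0.1.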
